A study of Homo sapiens with 28 samples.

Results

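Translation initiation factor genes were followed through ER stress in LNCaP cells, with and without removal of the stress kinase PERK or of the transcription factor ATF4. The members are the rows of the gene count tables whose symbol begins with EIF and a digit from 1 to 6, without the kinase genes EIF2AK1 to EIF2AK4, EIF1AY and symbols with a hyphen. This rule found 51 of 25369 genes. It takes in the subunits of eIF1, eIF2, eIF2B, eIF3, eIF4F, eIF5 and eIF6, the eIF4E binding proteins, and a few relatives that share the name. The rule reads symbols only.

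Initiation begins when eIF2, loaded with GTP and the initiator tRNA, joins the small ribosomal subunit together with eIF1, eIF1A, eIF3 and eIF5, and eIF4F brings in the capped end of an mRNA. eIF4F is made of the cap binder eIF4E, the helicase eIF4A and the scaffold eIF4G, and 4E-BP proteins such as the product of EIF4EBP1 compete with eIF4G for eIF4E. PERK, encoded by EIF2AK3, phosphorylates the alpha subunit of eIF2 under ER stress; phosphorylated eIF2 blocks its exchange factor eIF2B, which lowers most translation while the mRNA of ATF4 is translated more.

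LNCaP is an established line from a metastatic human prostate cancer, used here at passages 10 to 15. All 28 libraries came from cells that had been reverse transfected with an siRNA and were then, 2 days later, treated for 18 h, and each of 7 groups held 4 libraries from separate experiments according to the design text. Cells with the control siRNA received the solvent (DMSO siCtrl), tunicamycin at 2.5 µg/mL (TM siCtrl), or tunicamycin with the PERK inhibitor GSK2606414 at 100 nM (TM PERKi siCtrl). In the other groups tunicamycin, which blocks N-glycosylation and so causes ER stress, was combined with 1 of 2 siRNAs against EIF2AK3 (TM siPERK-1, TM siPERK-3) or 1 of 2 against ATF4 (TM siATF4-2, TM siATF4-3). The knockdown and inhibitor groups therefore all carry the stress itself, and no such group was treated with the solvent alone. All groups are 1 cell line, the inhibitor was used at 1 dose, and there was 1 time point.

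Library totals ran from 10794637 to 17253801 counts. The targeted genes followed the labels: EIF2AK3 averaged 89.2 ± 6.51 CPM (read counts relative to the library's TMM-scaled total; ± SD, n = 4) in TM siCtrl, 24.6 ± 4.0 with siPERK-1 and 21.5 ± 2.14 with siPERK-3, and ATF4 averaged 1511 ± 37.4, 237 ± 82.4 with siATF4-2 and 114 ± 19.0 with siATF4-3. All 7 luminal and LNCaP markers used (KLK2, KLK3, HOXB13, FOLH1, TMPRSS2, KRT8 and KRT18) were present at 1 CPM or more in every group, with a summed level of 4991 to 5936 CPM without stress (DMSO siCtrl), 2980.2 to 3259 for TM siCtrl, 2387 to 2645 with the inhibitor and 3626 to 3774 with siATF4-3. These markers did not move together: KLK3 averaged 2636 ± 233 CPM in DMSO siCtrl, 432 ± 44.2 in TM siCtrl and 64.5 ± 30.7 with the inhibitor, while KRT8 averaged 406 ± 18.6, 862 ± 38.2 and 831 ± 24.1. Basal markers KRT5, KRT14 and TP63 summed to at most 1.49 CPM in any library, and among mesenchymal markers COL1A2 and DCN were at or near 0 while COL1A1 averaged 18.6 ± 1.91 CPM in DMSO siCtrl, 35.6 ± 2.89 in TM siCtrl and 16.9 ± 2.89 with siATF4-3. The part of these marker shifts in the results was not tested. In bulk RNA a change in every cell and a change in some of the cells cannot be told apart.

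Of the 51 members, 46 passed the filter on low counts and were tested. The untested members were EIF4E1B, with 13 counts over all libraries, EIF3C with 2, and EIF3CL, EIF4A1 and the pseudogene EIF3IP1 with 0. A 0 for EIF4A1 (hg19 chr17:7476024-7482324, plus strand, 11 exons), the main helicase subunit of eIF4F, is not a measured absence. All of its exon bases lie inside same-strand exons of the readthrough row SENP3-EIF4A1, and among 547 genes of which this is true 89.6% had 0 counts, against 13.5% of 23740 genes with no such overlap. EIF3C and EIF3CL, near-identical copies of an eIF3 core subunit, share 87.1% and 99.9% of their exon bases with each other or another same-strand row, so their counts are likewise not a level. For EIF4EBP3 74.7% of exon bases lie inside ANKHD1-EIF4EBP3, and EIF5AL1 is a near-identical copy of EIF5A; the values of both are uncertain. EIF1AD, EIF1B, EIF2B1, EIF3G, EIF3J, EIF3M, EIF4A2 and EIF4E3 overlap a gene on the opposite strand, by at most 15.9% of exon bases (EIF3M), and the sources used here do not say if reads were counted by strand.

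The tested members were abundant. Their median level was 207 CPM over all libraries, against 24.2 CPM for all genes tested. Per kilobase of exon, the highest levels in DMSO siCtrl were EIF1 at 338 ± 19.7 CPM per kb (SD, n = 4), EIF4B at 332 ± 17.4 and EIF3E at 312 ± 16.9. The ranges of mean ± SD of these 3 overlapped, and their order was not tested. Lower in the order, EIF4EBP1 stood at 186 ± 11.8 CPM per kb, EIF4EBP2 at 24.0 ± 0.788 and EIF4EBP3 at 31.3 ± 2.47. Among the cap binders EIF4E had 25.7 ± 1.1 CPM per kb, EIF4E2 23.1 ± 1.16, and EIF4E3, the lowest of the tested members, 1.03 ± 0.122. The eIF2 subunits stood at 50.5 ± 1.96 (EIF2S1), 136 ± 3.21 (EIF2S2) and 128 ± 4.75 CPM per kb (EIF2S3), above all 5 eIF2B subunits, which ran from 14.4 ± 0.503 for EIF2B3 to 38.6 ± 3.04 for EIF2B1.

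Tunicamycin moved most initiation factor genes, in both directions, and all but EIF4E3 by less than 2-fold. Against DMSO siCtrl, 19 members rose and 19 fell (edgeR quasi-likelihood test, adjusted p under 0.05 over all 14314 genes), where 69.0% of all genes tested were called, 34.3% higher and 34.7% lower. The largest rises were EIF4E3, EIF1, EIF4G3, EIF4G2 and EIF2S2, and the largest falls EIF4EBP3, EIF5A, EIF3B, EIF4A3 and EIF5AL1. The median change of the members was -0.02 on the log2 scale, and of all genes 0.01. With library totals in place of TMM the median of all genes moved to -0.13, calls over all genes went from 4909 higher and 4974 lower to 3760 and 6262, and the members from 19 and 19 to 14 and 26.

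Loss of ATF4 under tunicamycin also moved most members. Against TM siCtrl 21 rose and 15 fell with siATF4-2, with a background of 55.6% of all genes called (28.4% higher and 27.2% lower). With siATF4-3 22 rose and 14 fell, with a background of 61.9% (31.2% higher and 30.7% lower). The members' median change was 0.12 with each oligo, against 0.00 for all genes tested. These splits moved with scaling. Upper-quartile factors gave 17 higher and 16 lower for siATF4-2, and 20 and 16 for siATF4-3. Library totals gave 26 and 14 for siATF4-2, and 29 and 14 for siATF4-3. The medians of all genes were then -0.04 and -0.03 with upper-quartile factors, and 0.06 and 0.07 with library totals. The 5 largest rises were EIF3B, EIF5A, EIF2S1, EIF5AL1 and EIF6 with siATF4-2 and EIF3B, EIF2S1, EIF5A, EIF2B4 and EIF5AL1 with siATF4-3. The 5 largest falls were EIF4EBP1, EIF4E3, EIF4EBP3, EIF4B and EIF4G3 with siATF4-2 and EIF4EBP1, EIF4E3, EIF2S2, EIF4G3 and EIF1 with siATF4-3. The direct contrast of both ATF4 siRNAs with both PERK siRNAs, which does not use TM siCtrl, gave 25 members higher and 16 lower at a background of 63.9% (31.6% higher and 32.3% lower). Its SE and p come from the spread of libraries within groups and do not measure the spread between oligos.

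The PERK arms moved fewer members. With the inhibitor 13 members rose and 7 fell, at a background of 35.7% (18.2% higher and 17.5% lower), and the fall count was 4 without TM siCtrl replicate 2, without TM siCtrl replicate 4 or without TM PERKi siCtrl replicate 4. With library totals the inhibitor's split was 8 higher and 14 lower. With siPERK-1 7 rose and 4 fell at a background of 26.4% (13.1% higher and 13.3% lower); upper-quartile scaling gave 12 and 4, and library totals 6 and 6. With siPERK-3 7 rose and 7 fell at a background of 26.8% (13.1% higher and 13.7% lower), and the fall count was 3 without TM siPERK-3 replicate 4. The largest rises with the inhibitor were EIF2B3, EIF5, EIF1B, EIF2B2 and EIF3J, and the largest falls EIF4A3, EIF3B, EIF4EBP2, EIF2B5 and EIF4E2, the last (-0.15) lost without TM siCtrl replicate 2 or 4 or TM PERKi siCtrl replicate 4. With siPERK-1 EIF5A, EIF5B, EIF1AD, EIF4A2 and EIF2D rose most and EIF4EBP3, EIF4G2, EIF4G3 and EIF2S2 fell. Its EIF4A2 rise (0.20 ± 0.06) was lost without TM siCtrl replicate 1 or TM siPERK-1 replicate 1, and its EIF2D rise (0.18 ± 0.06) without TM siCtrl replicate 2 or TM siPERK-1 replicate 3. With siPERK-3 EIF5A, EIF5B, EIF3B, EIF1AD and EIF2B3 rose most and EIF4EBP3, EIF4G2, EIF2S2, EIF4EBP2 and EIF4G3 fell most. Of the 46 tested members 82.6% were thus called with tunicamycin, 78.3% with each ATF4 siRNA, 43.5% with the inhibitor, 23.9% with siPERK-1 and 30.4% with siPERK-3. The members' levels were higher than those of all genes tested, as given above, and the part of this in their shares was not tested. The 6 comparisons share control groups: TM siCtrl stands in all of them.

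**Figure D1:**
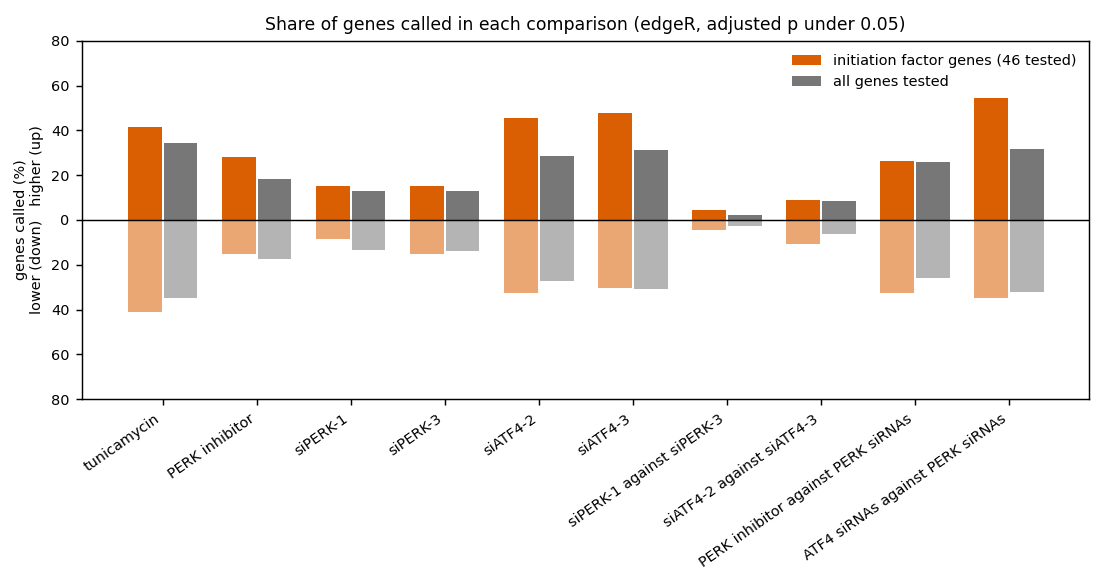
Percentage of genes called higher (bars up) and lower (paler bars down) in each of the 10 comparisons, for the 46 tested initiation factor genes and for all 14314 genes tested. The members' 2 bars together reach 82.6% with tunicamycin, where all genes reach 69.0%, and 23.9% with siPERK-1, where all genes reach 26.4%.

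**Figure D2:**
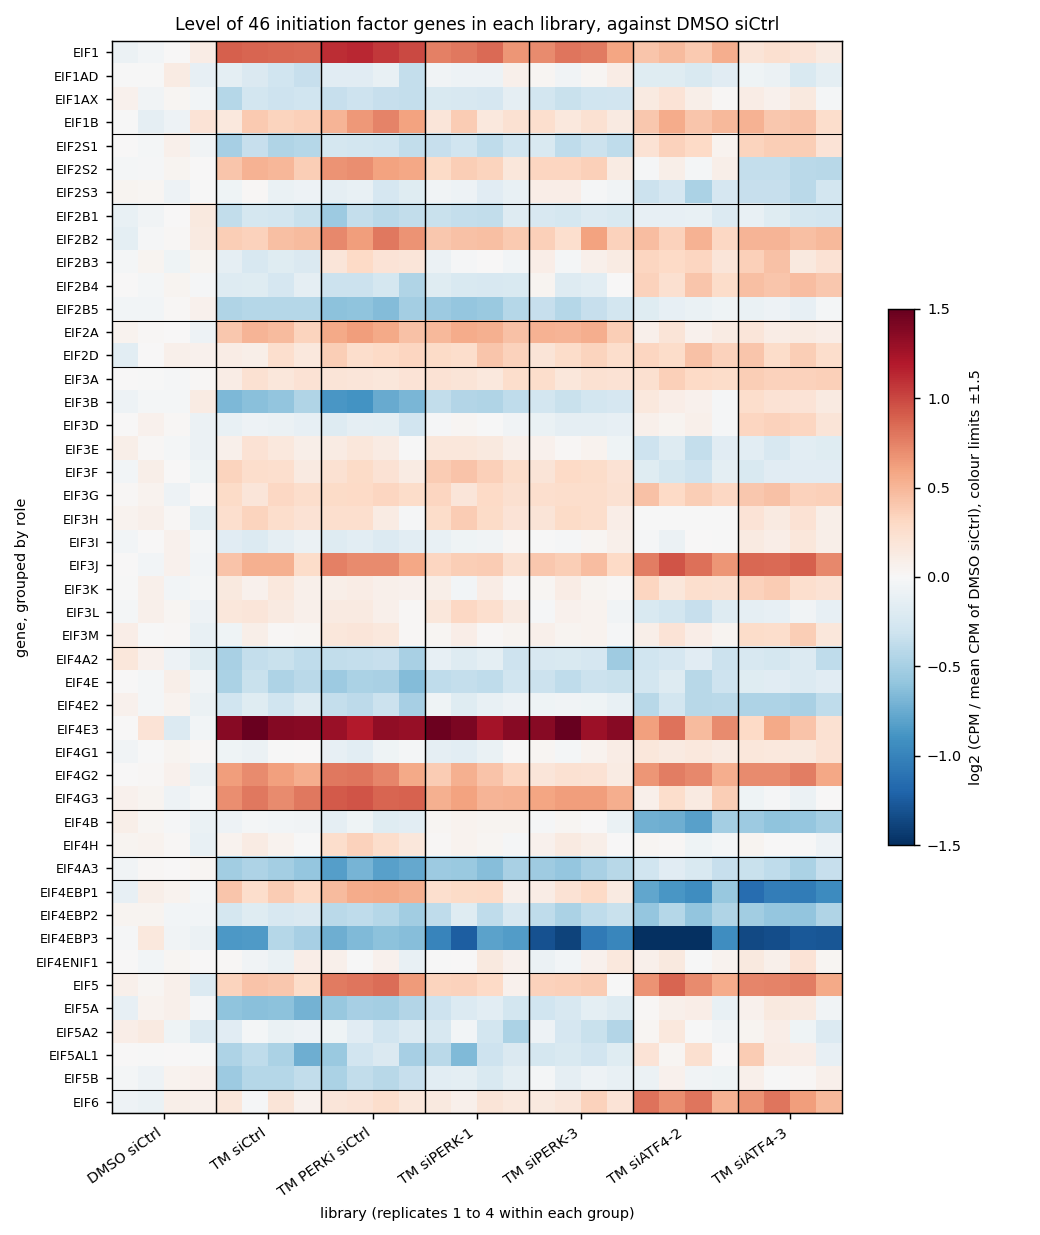
Level of the 46 tested genes in each of the 28 libraries, as log2 of CPM over the mean of DMSO siCtrl, with genes in rows grouped by role and libraries in columns by group. EIF4E3, EIF1 and EIF4G3 are red in all tunicamycin groups without ATF4 siRNA and paler with it, and EIF4EBP1 is clearly blue in the 8 libraries with ATF4 siRNAs.

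The eIF4E inhibitors gave the largest fall among the members with the ATF4 siRNAs, in EIF4EBP1, whose product (4E-BP1) holds eIF4E away from eIF4G until mTORC1 phosphorylates it. EIF4EBP1 stood at 147, 169.6, 166 and 157 CPM in the 4 DMSO siCtrl libraries and at 214, 192, 209 and 196 in TM siCtrl. It stood at 222, 236, 237 and 232 with the inhibitor, 191, 195, 197 and 169 with siPERK-1 and 173, 186, 197 and 176 with siPERK-3. With siATF4-2 it was 93.3, 87.5, 83.7 and 108 CPM and with siATF4-3 72.5, 78.1, 77.4 and 83.5. The 8 libraries with ATF4 siRNAs were thus below all 20 others, DMSO siCtrl included. EIF4EBP1 rose with tunicamycin by 0.34 ± 0.06 on the log2 scale (± SE, here and below; adjusted p = 3.50e-06) and fell with siATF4-2 (log2 change -1.12 ± 0.06, adjusted p = 1.64e-17) and siATF4-3 (-1.38 ± 0.06, adjusted p = 1.56e-20). It rose further with the inhibitor (0.19 ± 0.06, adjusted p = 0.00946), a call lost with library totals (0.14, adjusted p = 0.059). With the PERK siRNAs its change did not pass the test, at -0.11 (95% interval -0.23 to 0.01) and -0.15 (-0.27 to -0.03); the second was called without TM siCtrl replicate 2 (-0.18), without TM siPERK-3 replicate 3 (-0.19), with library totals (-0.18), in a fit of the compared groups only (-0.15) and without a filter (-0.16). The ATF4 siRNAs stood below the PERK siRNAs by -1.12 ± 0.04 (adjusted p = 2.53e-22), with no overlap of libraries.

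EIF4EBP2, the related inhibitor, fell in 5 of the 6 comparisons with a control. It averaged 181 ± 5.93 CPM in DMSO siCtrl, 155 ± 3.25 in TM siCtrl, 127 ± 7.61 with siATF4-2 and 125 ± 5.91 with siATF4-3, and fell in each of these steps (-0.23, -0.28 and -0.31). It also fell with the inhibitor (-0.20 ± 0.05) and with siPERK-3 (-0.16 ± 0.05, a call lost without TM siPERK-3 replicate 2, at -0.14). Its change with siPERK-1 was not called (-0.07). EIF4EBP3, which shares most of its exon bases with a readthrough row, read 21.3, 24.1, 20.8 and 20.3 CPM in DMSO siCtrl and 11.9, 12.0, 16.1 and 15.3 in TM siCtrl. With siATF4-2 it read 7.45, 7.61, 7.31 and 11.3 CPM and with siATF4-3 8.47, 8.60, 8.97 and 8.90. All tunicamycin libraries were below all DMSO libraries, and EIF4EBP3 fell with tunicamycin (-0.65 ± 0.10), siPERK-3 (-0.52 ± 0.12) and both ATF4 siRNAs (-0.71 ± 0.12 and -0.65 ± 0.12). Its fall with siPERK-1 (-0.31 ± 0.11, adjusted p = 0.0365) was not called without TM siCtrl replicate 3 or 4 or without TM siPERK-1 replicate 1 or 2, with values from -0.30 to -0.23. EIF4EBP3 was not called with the inhibitor (-0.005). EIF4ENIF1, which carries eIF4E into the nucleus and to P-bodies, was called in none of the 6 comparisons with a control, with changes from -0.01 to 0.12. With library totals it was called as a fall with tunicamycin (-0.14) and as a rise with siATF4-3 (0.19).

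Among the cap binders themselves, EIF4E3, a low-abundance relative of eIF4E, had the largest rise of all members with tunicamycin. EIF4E3 (hg19 chr3:71728440-71803924, minus strand, 12 exons) read 6.97, 7.99, 6.0 and 6.76 CPM in DMSO siCtrl and 17.9, 19.4, 18.0 and 17.9 in TM siCtrl. With the inhibitor and the PERK siRNAs its libraries lay at 15.8 to 17.4, 16.5 to 19.1 and 16.8 to 19.5 CPM. With siATF4-2 it read 10.6, 12.2, 9.60 and 11.4 CPM and with siATF4-3 8.56, 10.2, 9.33 and 8.10. The ATF4 siRNA libraries lay between the DMSO libraries and the other tunicamycin libraries, with no overlap on either side. EIF4E3 rose with tunicamycin by 1.40 ± 0.09 (adjusted p = 1.33e-17) and fell with siATF4-2 (-0.74 ± 0.09, adjusted p = 1.67e-09) and siATF4-3 (-1.01 ± 0.09, adjusted p = 9.40e-13); with the PERK arms the change was from -0.12 to -0.02 and not called. EIF4E, the cap binder of eIF4F, averaged 129.6 ± 5.53 CPM in DMSO siCtrl and 97 ± 4.14 in TM siCtrl and fell by -0.42 ± 0.05 on the log2 scale. It was higher again with siATF4-3 (114 ± 1.26 CPM, log2 change 0.24 ± 0.05) but stayed below every DMSO siCtrl library. Its smaller rise with siATF4-2 was called but lost with upper-quartile factors (0.08), the compared groups only (0.11) and no filter (0.12). Leaving out TM siCtrl replicate 1, 3 or 4 or TM siATF4-2 replicate 1 or 2 lost it too. A called fall of EIF4E with the inhibitor was lost in DESeq2 (-0.11), the compared groups only (-0.12) and some other alternatives. EIF4E2, which binds caps without binding eIF4G and represses translation, fell with tunicamycin (-0.24 ± 0.05) and with siATF4-3 (-0.20 ± 0.05). Its fall with siATF4-2 (-0.13 ± 0.05, adjusted p = 0.0261) was lost without TM siCtrl replicate 2 or 4, without TM siATF4-2 replicate 1, 3 or 4, and with library totals (-0.12 to -0.07). With siPERK-3 it rose (0.17 ± 0.05), and it stood higher with the PERK siRNAs than with the ATF4 siRNAs (ATF4 minus PERK -0.32 ± 0.04, adjusted p = 2.98e-10).

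**Figure D3:**
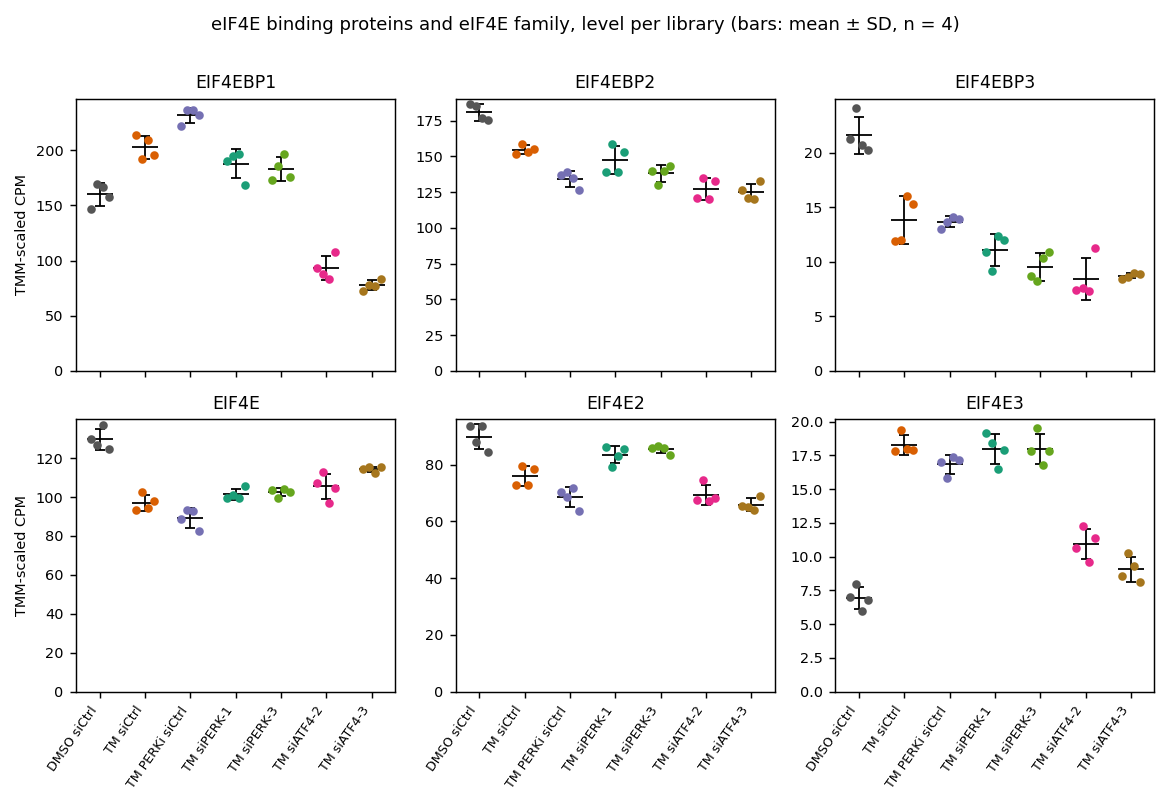
TMM-scaled CPM of the eIF4E binding protein and eIF4E family genes in each library (points) by group, with mean and SD (bars, n = 4). EIF4EBP1 sits between 72.5 and 108 CPM in the 8 libraries with ATF4 siRNAs and between 147 and 237 CPM in all others, and EIF4E3 is lowest in DMSO siCtrl.

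The scaffolds of eIF4F split. EIF4G1, the main scaffold, was not called with tunicamycin (-0.04, 95% interval -0.12 to 0.04) and rose slightly with siATF4-2 (0.18 ± 0.04) and siATF4-3 (0.21 ± 0.04). With library totals its tunicamycin change was called as a fall (-0.18). EIF4G3, the other full scaffold gene (hg19 chr1:21132785-21503381, minus strand, 42 exons), read 115, 114, 105 and 108 CPM in DMSO siCtrl and 180.1, 191, 181 and 191 in TM siCtrl. It read 116, 132, 121 and 143 CPM with siATF4-2 and 106, 109, 104 and 111 with siATF4-3. The siATF4-3 libraries overlapped those of DMSO siCtrl, and both ATF4 siRNA groups were below all TM siCtrl libraries. EIF4G3 rose with tunicamycin (0.75 ± 0.05, adjusted p = 2.06e-17) and fell with siATF4-2 (-0.54 ± 0.05) and siATF4-3 (-0.79 ± 0.05, adjusted p = 2.35e-17). It also fell with siPERK-1 (-0.21 ± 0.05) and siPERK-3 (-0.15 ± 0.05), the latter not without TM siCtrl replicate 2 or TM siPERK-3 replicate 4, and rose with the inhibitor (0.16 ± 0.05), a call lost with library totals (0.10).

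EIF4G2, also called DAP5, resembles the scaffold but lacks the part that binds eIF4E, and it fell with both PERK siRNAs while it was called with neither ATF4 siRNA. EIF4G2 (hg19 chr11:10818593-10830582, minus strand, 23 exons) read 1176, 1184, 1231 and 1100.1 CPM in DMSO siCtrl and 1811, 1916, 1797 and 1707 in TM siCtrl. It read 1524, 1691, 1581 and 1463 with siPERK-1 and 1326, 1377, 1358 and 1274 with siPERK-3. With the ATF4 siRNAs it ranged over 1713 to 1993 and 1756 to 1989.7 CPM. Both PERK siRNA groups lay below all TM siCtrl libraries, while both ATF4 siRNA groups overlapped them. EIF4G2 rose with tunicamycin by 0.62 ± 0.05 (adjusted p = 6.26e-14), fell with siPERK-1 (-0.21 ± 0.05, adjusted p = 0.00217) and siPERK-3 (-0.44 ± 0.05, adjusted p = 1.60e-08), and was not called with siATF4-2 (0.05, 95% interval -0.05 to 0.15), siATF4-3 (0.07, -0.03 to 0.17) or the inhibitor (0.10, 0.00 to 0.20). With library totals the ATF4 siRNA values became small rises (0.11 and 0.14, adjusted p = 0.0451 and 0.00921), and the inhibitor's was called as a rise without TM PERKi siCtrl replicate 4 (0.15). In direct tests EIF4G2 was higher with the ATF4 siRNAs than with the PERK siRNAs (0.38 ± 0.04, adjusted p = 5.47e-12), higher with the inhibitor than with the PERK siRNAs (0.43 ± 0.04, adjusted p = 1.19e-10), and lower with siPERK-3 than with siPERK-1 (siPERK-1 minus siPERK-3 0.23 ± 0.05, adjusted p = 0.00404).

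The helicase genes and their partners behaved apart from each other. EIF4A2, a helicase paralog, fell with tunicamycin (-0.39 ± 0.06) from 407 ± 42.8 to 310.4 ± 14.9 CPM, and EIF4A3, the RNA helicase of the exon junction complex, fell by -0.52 ± 0.05. EIF4A3 fell further with the inhibitor (-0.26 ± 0.05, adjusted p = 8.17e-05) and rose with siATF4-2 (0.26 ± 0.05) and siATF4-3 (0.13 ± 0.05), the last not without TM siCtrl replicate 4, without TM siATF4-3 replicate 1 or 4, with upper-quartile factors, or without a filter (0.10 to 0.13). EIF4B, which stimulates the helicase (hg19 chr12:53400062-53435993, plus strand, 15 exons), read 1419, 1365, 1317 and 1254 CPM in DMSO siCtrl and 1269, 1316, 1300.4 and 1288 in TM siCtrl. With siATF4-2 it read 811, 806, 759 and 939.7 CPM and with siATF4-3 915, 878, 893 and 939.7. EIF4B thus did not pass the test with tunicamycin (-0.05, 95% interval -0.14 to 0.04), yet all 8 ATF4 siRNA libraries were below all others, with falls of -0.64 ± 0.05 and -0.51 ± 0.05 against TM siCtrl (adjusted p = 7.77e-15 and 1.60e-12). With library totals EIF4B was called as a fall with tunicamycin (-0.19). EIF4H, a smaller partner of the helicase, was called only with the inhibitor (0.20 ± 0.04), among the 6 comparisons with a control; with library totals it was called as a fall with tunicamycin (-0.08), and with upper-quartile factors as a fall with both ATF4 siRNAs (-0.11 and -0.10).

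The 3 subunits of eIF2 did not move together. EIF2S1 encodes eIF2 alpha, the subunit PERK phosphorylates (hg19 chr14:67827034-67853233, plus strand, 8 exons), and read 212, 206, 222 and 203 CPM in DMSO siCtrl and 149, 166, 154 and 157 in TM siCtrl. It read 245, 268, 258 and 219 CPM with siATF4-2 and 264, 273, 271 and 243 with siATF4-3. Both ATF4 siRNA groups lay above all TM siCtrl libraries, the siATF4-3 group also above all DMSO siCtrl libraries, and the siATF4-2 group overlapped DMSO siCtrl through its lowest library. EIF2S1 fell with tunicamycin (-0.43 ± 0.05, adjusted p = 1.02e-09) and rose with siATF4-2 (0.66 ± 0.05, adjusted p = 3.92e-14) and siATF4-3 (0.75 ± 0.05, adjusted p = 4.36e-16). With the inhibitor and the PERK siRNAs it lay at 171 ± 5.80, 167 ± 4.56 and 168 ± 8.26 CPM, changes from 0.10 to 0.12 that were not called; the inhibitor's was called without TM siCtrl replicate 2 (0.15) or TM PERKi siCtrl replicate 4 (0.15), in DESeq2 (0.14) and in a fit of the compared groups only (0.12).

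EIF2S2, which encodes eIF2 beta, moved the other way (hg19 chr20:32676115-32700085, minus strand, 9 exons). It read 345, 349, 364 and 355 CPM in DMSO siCtrl, 469.7, 507, 499 and 455 in TM siCtrl and 565, 573, 538 and 528 with the inhibitor. With siATF4-2 it read 348, 375, 346 and 376 CPM and with siATF4-3 277, 276, 266 and 266. With siATF4-3 all 4 libraries were below every DMSO siCtrl library. EIF2S2 rose with tunicamycin (0.45 ± 0.05), rose again with the inhibitor (0.19 ± 0.05, adjusted p = 0.00152) and fell with siATF4-2 (-0.42 ± 0.05) and siATF4-3 (-0.83 ± 0.05, adjusted p = 4.78e-18); the ATF4 oligos differed by 0.41 ± 0.05 (adjusted p = 4.95e-08). Small falls with siPERK-1 (-0.16 ± 0.05) and siPERK-3 (-0.17 ± 0.05) were called, the first not without TM siCtrl replicate 2 or TM siPERK-1 replicate 4 and the second not without TM siPERK-3 replicate 4. EIF2S3, which encodes eIF2 gamma, averaged 443 ± 16.4 CPM in DMSO siCtrl and 427 ± 15.0 in TM siCtrl, a change of -0.05 (95% interval -0.15 to 0.04) that did not pass the test but was called with library totals (-0.19). It fell with siATF4-2 (-0.27 ± 0.05) and siATF4-3 (-0.29 ± 0.05). EIF2S3 was not called with the inhibitor (-0.115), siPERK-1 (-0.047) or siPERK-3 (0.086). The inhibitor's change was called as a fall with library totals (-0.17), upper-quartile factors (-0.12), limma-voom (-0.12) and the compared groups only (-0.12). Leaving out TM PERKi siCtrl replicate 2 also gave that call (-0.14).

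eIF2B exchanges GDP for GTP on eIF2 and is the complex that phosphorylated eIF2 inhibits. With tunicamycin 4 of its 5 subunit genes fell and EIF2B2 rose, where 34.7% of all genes tested were lower and 34.3% higher. EIF2B5, the catalytic subunit, fell most, from 81.2 ± 2.92 to 60.1 ± 0.643 CPM (-0.43 ± 0.05, adjusted p = 7.63e-11), EIF2B1 by -0.31 ± 0.05, EIF2B4 by -0.19 ± 0.06 and EIF2B3 by -0.19 ± 0.06 on the log2 scale. EIF2B2 rose from 37.2 ± 3.08 to 49.3 ± 2.1 CPM (0.41 ± 0.06, adjusted p = 3.29e-07).

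With siATF4-2 4 of 5 eIF2B genes rose and with siATF4-3 3 of 5, and 0 fell with either; with library totals the count for siATF4-3 was 5 of 5. Of all genes tested 28.4% were higher with siATF4-2 and 31.2% with siATF4-3. EIF2B4 read 43.5, 42.6, 44.7 and 42.7 CPM in DMSO siCtrl and 38, 38.1, 36.3 and 39.4 in TM siCtrl. It read 55.1, 51.3, 57.7 and 52.4 CPM with siATF4-2 and 59.5, 57.8, 60.0 and 57.6 with siATF4-3. All 8 ATF4 siRNA libraries were above every other library of the study for this gene, and its rises were 0.51 ± 0.06 (adjusted p = 2.39e-10) and 0.63 ± 0.06 (adjusted p = 5.95e-13). EIF2B3 rose by 0.48 ± 0.06 and 0.49 ± 0.06, and EIF2B5 by 0.32 ± 0.05 and 0.36 ± 0.05. EIF2B1 rose with siATF4-2 (0.17 ± 0.06) and was not called with siATF4-3 (0.10, 95% interval -0.01 to 0.21), and EIF2B2 was called with neither (0.01 and 0.08). With library totals the siATF4-3 values were 0.17 for EIF2B1 and 0.16 for EIF2B2.

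The inhibitor and the PERK siRNAs differed on eIF2B. With the inhibitor EIF2B3 rose from 27.4 ± 0.901 to 36.5 ± 1.5 CPM (0.41 ± 0.06, adjusted p = 9.34e-07) and EIF2B2 from 49.3 ± 2.1 to 60.5 ± 2.86 (0.30 ± 0.06, adjusted p = 1.69e-04), while EIF2B5 fell (-0.16 ± 0.05). EIF2B4 fell too (-0.15 ± 0.06, adjusted p = 0.0423), a call that held in 7 of 16 alternatives and was lost without any 1 of TM siCtrl replicates 1, 2 and 4 or TM PERKi siCtrl replicates 1, 2 and 4 (-0.15 to -0.11). EIF2B1 was not called with the inhibitor (-0.11), except with library totals (-0.16). With siPERK-1 0 of 5 were called and with siPERK-3 only EIF2B3 (0.26 ± 0.06, adjusted p = 0.00145). For siPERK-1 EIF2B3 stood at 0.16 (95% interval 0.04 to 0.28) and was called without TM siCtrl replicate 1 (0.18) and with upper-quartile factors (0.17). Of all genes tested 35.7% were called with the inhibitor, 26.4% with siPERK-1, 26.8% with siPERK-3 and 51.9% in the direct test of inhibitor against PERK siRNAs. In the direct test the inhibitor was above the PERK siRNAs for EIF2B2 (0.29 ± 0.05) and EIF2B3 (0.20 ± 0.05) and below them for EIF2B1, EIF2B4 and EIF2B5, from -0.19 to -0.14; the EIF2B1 call was lost without TM PERKi siCtrl replicate 1 (-0.10).

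**Figure D4:**
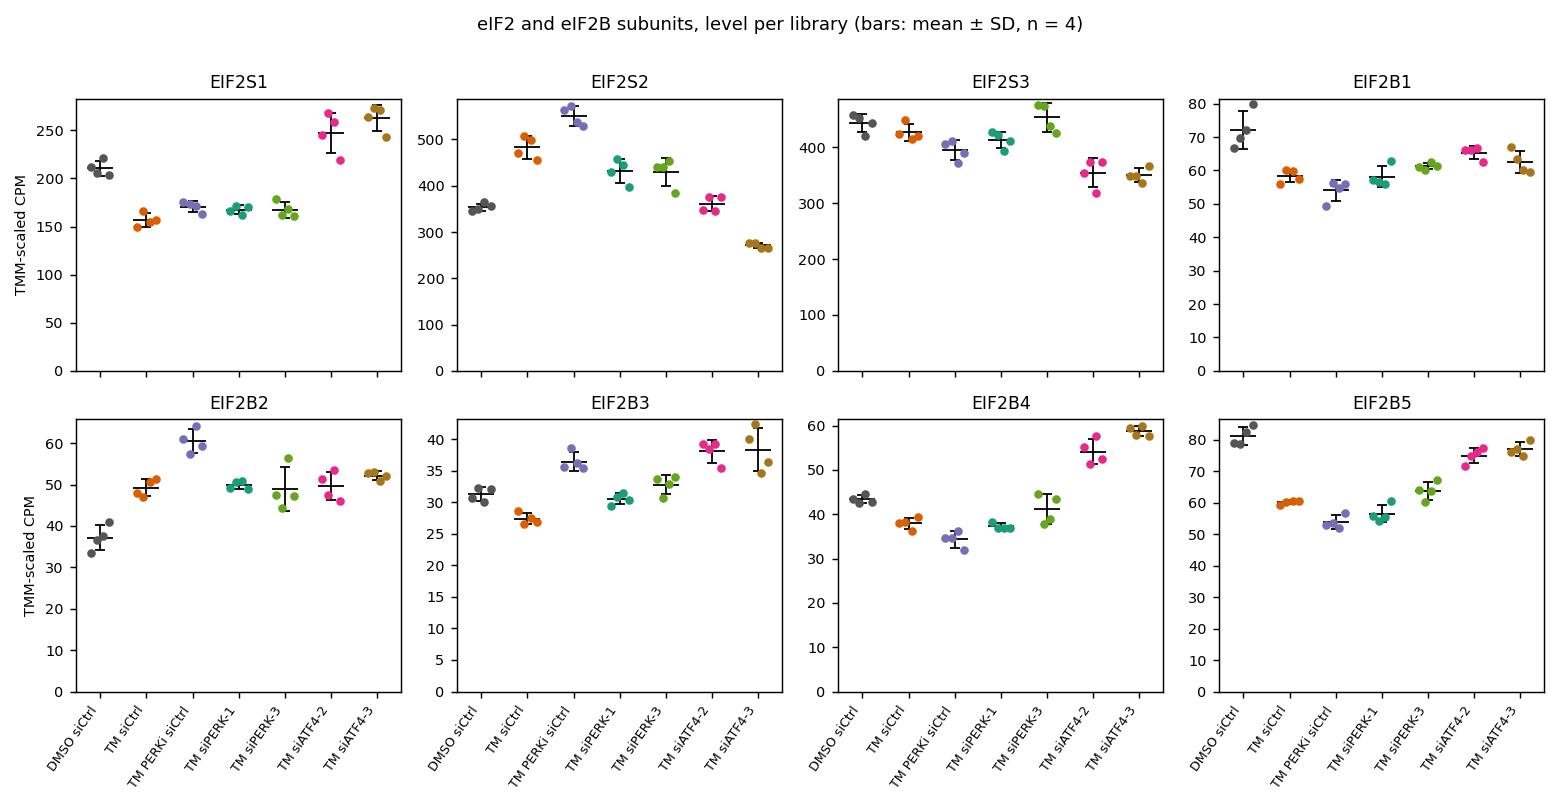
TMM-scaled CPM of the eIF2 and eIF2B subunit genes in each library (points) by group, with mean and SD (bars, n = 4). EIF2S1 and EIF2S2 move in opposite directions between TM siCtrl and the ATF4 siRNA groups, and EIF2B2 is the eIF2B gene that is higher in TM siCtrl than in DMSO siCtrl.

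The factors that guard start codon choice were led by EIF1, which keeps the scanning complex open and discriminates against wrong start sites (hg19 chr17:39845127-39847898, plus strand, 4 exons). EIF1 read 422, 436, 450.3 and 483 CPM in DMSO siCtrl and 832, 823, 815 and 807 in TM siCtrl. It read 962, 979.6, 934 and 892 with the inhibitor. With siATF4-2 it read 598, 622, 587 and 652 CPM and with siATF4-3 512, 529, 517 and 492. Both ATF4 siRNA groups lay between the DMSO and the TM siCtrl libraries without overlap. EIF1 rose with tunicamycin by 0.87 ± 0.05 (adjusted p = 1.16e-19) and with the inhibitor by 0.20 ± 0.05, and fell with siATF4-2 (-0.41 ± 0.05) and siATF4-3 (-0.68 ± 0.05, adjusted p = 9.04e-16). EIF1AX, which encodes the partner factor eIF1A, went the other way: it averaged 182 ± 6.46 CPM in DMSO siCtrl, 145 ± 6.77 in TM siCtrl, 197 ± 10.6 with siATF4-2 and 191 ± 9.79 with siATF4-3, with a fall of -0.33 ± 0.04 and rises of 0.44 ± 0.04 and 0.40 ± 0.04. EIF1B, a close paralog of EIF1, rose with tunicamycin (0.31 ± 0.07, with overlapping libraries) and with the inhibitor (0.32 ± 0.07) and was not called with any siRNA against TM siCtrl. EIF1AD fell with tunicamycin (-0.25 ± 0.07) and rose with siPERK-3 (0.28 ± 0.07) and siPERK-1 (0.21 ± 0.07), the last not without TM siCtrl replicate 4 or TM siPERK-1 replicate 4.

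EIF2A and EIF2D encode proteins that can bring tRNA to the ribosome without eIF2. EIF2A (hg19 chr3:150264574-150303803, plus strand, 14 exons) read 193, 188, 186 and 176 CPM in DMSO siCtrl and 246, 264, 258 and 234 in TM siCtrl. It read 196, 212, 194 and 202 with siATF4-2 and 209.8, 199.9, 202 and 199 with siATF4-3. The ATF4 siRNA libraries were below all TM siCtrl libraries and above all DMSO siCtrl libraries. EIF2A rose with tunicamycin (0.43 ± 0.05, adjusted p = 9.55e-11), fell with siATF4-2 (-0.32 ± 0.05) and siATF4-3 (-0.30 ± 0.05), and was not called with either PERK siRNA (0.07 and 0.05). The inhibitor gave a called rise of EIF2A (0.12). This call was lost with library totals (0.06), upper-quartile factors (0.11), the compared groups only and no filter. Leaving out TM siCtrl replicate 1 or 4 or TM PERKi siCtrl replicate 1, 2 or 3 also lost it. EIF2D rose slightly with each ATF4 siRNA (0.19 ± 0.06 and 0.18 ± 0.06) and with tunicamycin (0.15 ± 0.06), where the call was lost without DMSO siCtrl replicate 1, without TM siCtrl replicate 3 and with library totals (0.02 to 0.12). The inhibitor also gave a called rise of EIF2D (0.16), lost with library totals (0.10) and without a filter. Leaving out TM siCtrl replicate 1 or 2 or TM PERKi siCtrl replicate 1 lost it too.

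The promoters were searched for 3 letter patterns on both strands, in the 250 bases before the start of the 42 members found in RefSeq's promoter table (GRCh38.p14). The core of the element bound by ATF4 with C/EBP partners, TGATGNAA, was in 0 of 42 members and 3.19% of all 27305 promoters, and the unfolded protein response element TGACGTGG in 0 of 42 and 0.667%. The ER stress element (CCAAT and CCACG with 9 bases of any kind between them) was in 1 of 42 members, EIF2A, and in 0.0806% of all promoters. Its window is shown because it is the sole match and EIF2A was called in both directions above; the 250 bases run 5′ to 3′ on the plus strand at GRCh38.p14 chr3:150546537-150546786, and capitals mark the match, which begins 77 bases before the annotated start.
EIF2A: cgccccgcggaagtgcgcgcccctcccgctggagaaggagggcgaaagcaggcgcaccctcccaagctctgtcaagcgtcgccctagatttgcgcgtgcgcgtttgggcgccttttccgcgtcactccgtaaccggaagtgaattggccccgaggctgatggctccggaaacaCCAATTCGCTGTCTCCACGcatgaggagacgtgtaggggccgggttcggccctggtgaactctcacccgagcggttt
The match is a description of letters and was not tested as a site. The 9 members absent from the table include EIF4EBP1 and EIF2S2, so no statement on their promoters is made.

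eIF3, the largest factor, holds the small subunit and recruits the mRNA, and its genes divided. With tunicamycin 8 of 12 tested subunit genes rose and 3 fell, with changes from -0.58 to 0.44; with library totals 4 rose and 4 fell. Of all genes tested 34.3% were higher and 34.7% lower. EIF3B, a core subunit (hg19 chr7:2394474-2420377, plus strand, 19 exons), read 361, 370.3, 373 and 413 CPM in DMSO siCtrl and 237, 246, 251 and 278 in TM siCtrl. It read 207, 204, 224 and 236 with the inhibitor, 293, 278, 278 and 291 with siPERK-1 and 312, 301, 313 and 319 with siPERK-3. It read 423, 406, 397 and 376 with siATF4-2 and 454, 442, 438 and 415 with siATF4-3. The order of group means was inhibitor, TM siCtrl, siPERK-1 and then siPERK-3. All libraries of these groups were below DMSO siCtrl and below the ATF4 siRNA groups, and siATF4-3 was above every DMSO library. The highest TM siCtrl library and the lowest siPERK-1 libraries read 278 CPM. The direct test of siPERK-1 against siPERK-3 did not call EIF3B. EIF3B fell with tunicamycin (-0.58 ± 0.05) and the inhibitor (-0.22 ± 0.05, adjusted p = 7.36e-04) and rose with siPERK-1 (0.17 ± 0.05, adjusted p = 0.0089), siPERK-3 (0.30 ± 0.05, adjusted p = 1.36e-05), siATF4-2 (0.66 ± 0.05) and siATF4-3 (0.79 ± 0.05). The inhibitor and the PERK siRNAs differed directly by -0.45 ± 0.04 (adjusted p = 3.81e-11).

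EIF3J, a loosely bound subunit, rose with tunicamycin (0.44 ± 0.06), with the inhibitor (0.24 ± 0.06) and again with siATF4-2 (0.36 ± 0.06) and siATF4-3 (0.39 ± 0.06), from 158 ± 5.48 CPM in DMSO siCtrl over 214 ± 17.2 in TM siCtrl to 280.4 ± 14 with siATF4-3. With siATF4-2 6 of the 12 rose and 4 fell, where upper-quartile factors gave 3 and 4 and library totals 8 and 4. With siATF4-3 8 rose and 3 fell, where upper-quartile factors gave 7 and 4. Of all genes tested 28.4% were higher and 27.2% lower with siATF4-2, and 31.2% and 30.7% with siATF4-3. EIF3E, EIF3F and EIF3L fell with both ATF4 siRNAs. With tunicamycin EIF3F rose (0.25 ± 0.05), and EIF3E (0.14 ± 0.05) and EIF3L (0.14 ± 0.04) rose by amounts that were -0.01 and 0.00 with library totals; the EIF3E call was lost also without DMSO siCtrl replicate 4 or TM siCtrl replicate 2. For EIF3F, part of the outer eIF3 module, the means were 236 ± 11.1 CPM in DMSO siCtrl, 280.2 ± 15.6 in TM siCtrl, 202 ± 10.4 with siATF4-2 and 208 ± 4.28 with siATF4-3, and the falls -0.47 ± 0.05 and -0.43 ± 0.05. EIF3E fell by -0.39 ± 0.05 and -0.32 ± 0.05, and EIF3L by -0.40 ± 0.04 and -0.25 ± 0.04. EIF3D, the subunit that can itself bind caps, rose more with siATF4-3 (0.40 ± 0.04) than with siATF4-2 (0.14 ± 0.04), and this difference was called (siATF4-2 minus siATF4-3 -0.25 ± 0.04, adjusted p = 2.57e-05).

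The ATF4 oligos differed in 9 members, 4 higher and 5 lower with siATF4-2, at a background of 14.7% of all genes (8.53% higher and 6.20% lower). The 4 were EIF2S2, EIF1, EIF4EBP1 and EIF4G3, all of them genes that fell more with siATF4-3, by differences of 0.25 to 0.41. The EIF4EBP1 difference (0.26 ± 0.07) was 0.18 (adjusted p = 0.0535) without TM siATF4-2 replicate 4. The 5 were the eIF3 genes EIF3D, EIF3H, EIF3I, EIF3L and EIF3M, by -0.25 to -0.15. Without TM siATF4-3 replicate 3 only 2 of the 5 were called. EIF3H was lost also without TM siATF4-2 replicate 1, 2 or 4 or TM siATF4-3 replicate 1, EIF3M without TM siATF4-2 replicate 4, and EIF3L without TM siATF4-2 replicate 3; none of these 3 was called without TM siATF4-3 replicate 3. ATF4 itself was lower with siATF4-3 than with siATF4-2 (siATF4-2 minus siATF4-3 1.05 ± 0.16, adjusted p = 6.10e-05).

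Of the factors that act late, EIF5A and EIF5B shared a course with tunicamycin and the siRNAs. EIF5A encodes the hypusine-bearing factor that helps ribosomes through difficult peptide bonds (hg19 chr17:7210318-7215782, plus strand, 9 exons) and read 261, 294, 298 and 280.1 CPM in DMSO siCtrl and 187, 183, 185 and 173 in TM siCtrl. It read 228, 246, 253 and 234 with siPERK-1 and 231, 241, 256 and 247 with siPERK-3. It read 286, 299, 304 and 263 with siATF4-2 and 297, 313, 312 and 273 with siATF4-3. All siRNA groups lay above every TM siCtrl library, the PERK groups below every DMSO siCtrl library and the ATF4 groups across the DMSO range. EIF5A fell with tunicamycin (-0.64 ± 0.05, adjusted p = 1.64e-14) and rose with siPERK-1 (0.40 ± 0.05, adjusted p = 1.01e-07), siPERK-3 (0.42 ± 0.05, adjusted p = 2.81e-08), siATF4-2 (0.66 ± 0.05) and siATF4-3 (0.71 ± 0.05), the largest rises of any member with either PERK siRNA. The ATF4 siRNAs stood above the PERK siRNAs by 0.28 ± 0.04 (adjusted p = 9.65e-09). EIF5A was also called as a rise with the inhibitor, a call lost with library totals (0.08) and without a filter (0.125). That call was lost too without TM siCtrl replicate 2, 3 or 4 or TM PERKi siCtrl replicate 2, 3 or 4.

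EIF5B, the GTPase that joins the ribosomal subunits, fell with tunicamycin from 202 ± 9.31 to 148 ± 7.31 CPM (-0.44 ± 0.04) and rose with siPERK-1 (0.27 ± 0.04), siPERK-3 (0.36 ± 0.04), siATF4-2 (0.41 ± 0.04) and siATF4-3 (0.48 ± 0.04). With the inhibitor it was 153 ± 5.79 CPM, a change of 0.04 (95% interval -0.05 to 0.13), and it was lower with the inhibitor than with the PERK siRNAs (-0.27 ± 0.04, adjusted p = 2.33e-07). EIF5, which triggers GTP hydrolysis on eIF2, rose with tunicamycin (0.36 ± 0.08), the inhibitor (0.40 ± 0.08) and both ATF4 siRNAs (0.34 ± 0.08 and 0.34 ± 0.08) but was not called with the PERK siRNAs (-0.10 and -0.09). EIF5AL1 had changes close to those of EIF5A with tunicamycin (-0.50 ± 0.10) and the ATF4 siRNAs (0.62 ± 0.10 and 0.63 ± 0.10), with reads that may belong to either copy. EIF5A2, a scarce paralog at 11.6 ± 1.24 CPM in DMSO siCtrl, was called in none of the 6 comparisons with a control, with changes from -0.18 to 0.12. With library totals it was called as a fall with tunicamycin (-0.23).

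EIF6, which keeps large ribosomal subunits from joining too early (hg19 chr20:33866709-33872619, minus strand, 6 exons), changed only with the ATF4 siRNAs among the 6 comparisons. It read 77.9, 76.7, 86.9 and 86.8 CPM in DMSO siCtrl and 92.3, 81.2, 93.6 and 85.9 in TM siCtrl. It read 144, 133, 143 and 118 with siATF4-2 and 131, 143, 127 and 115 with siATF4-3. All 8 were above all other libraries, with rises of 0.61 ± 0.06 (adjusted p = 4.32e-11) and 0.55 ± 0.06 (adjusted p = 3.64e-10). With tunicamycin its change was 0.10 (95% interval -0.02 to 0.22), and it was called with 1 of 16 alternatives.

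Set directly against the PERK siRNAs, the ATF4 siRNAs had more members higher than lower. Of the 25 higher, EIF2S1 (0.61 ± 0.04), EIF2B4 (0.52 ± 0.04) and EIF6 (0.50 ± 0.04) differed most, and of the 16 lower, EIF4EBP1 (-1.12 ± 0.04), EIF4E3 (-0.85 ± 0.06) and EIF4B (-0.64 ± 0.03). By role, 4 of 5 eIF2B genes (3 with upper-quartile factors, 5 with library totals), 8 of 12 eIF3 genes (7 with upper-quartile factors) and 5 of 5 genes of the eIF5 group were higher, and 3 of 4 eIF4E inhibitors (2 with library totals), 2 of 3 eIF2 subunits and 4 of 12 eIF3 genes were lower. Among these EIF2B1 was called in 21 of 24 alternatives, EIF3I in 10 of 24 and EIF4EBP3 in 23 of 24. Of all genes tested 31.6% were higher and 32.3% lower in this contrast. The members' median difference was 0.10, against -0.01 for all genes tested. The split was 28 higher and 14 lower with library totals and 22 and 17 with upper-quartile factors.

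**Figure D5:**
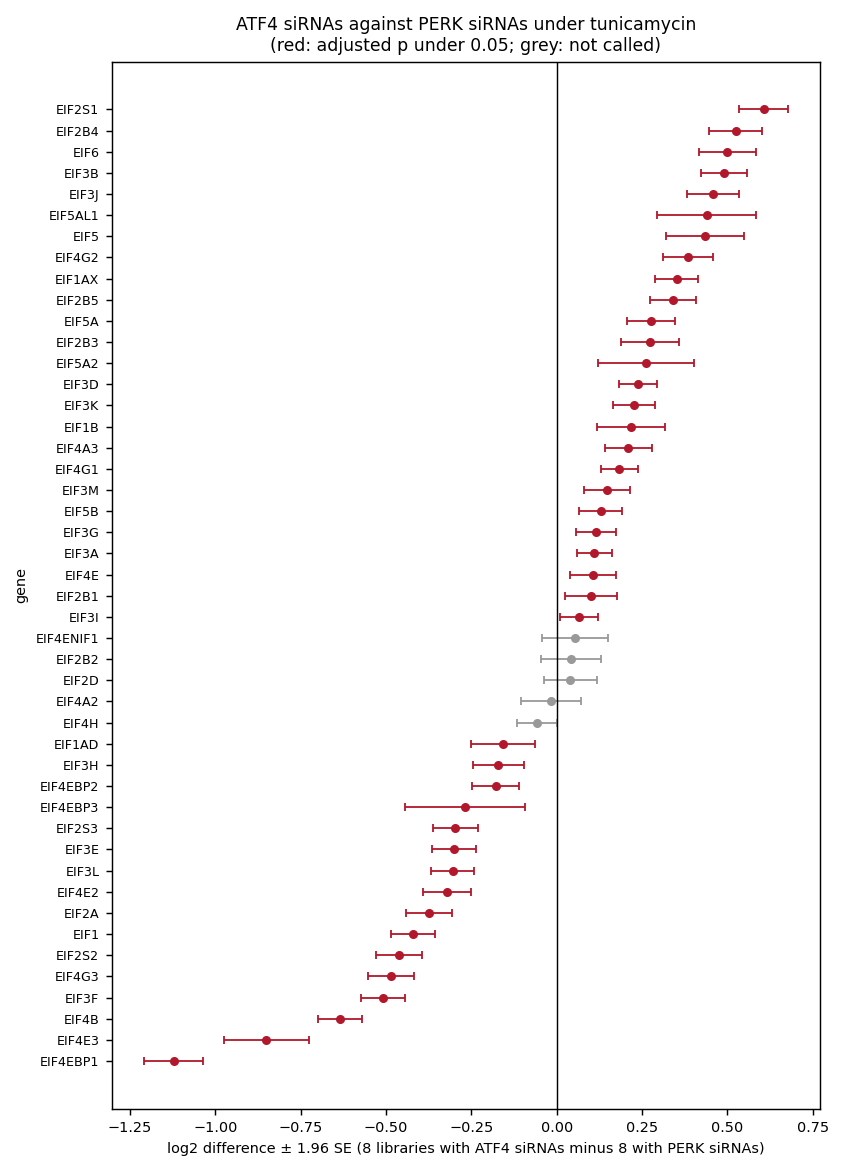
Log2 difference of each tested member between the 8 libraries with ATF4 siRNAs and the 8 with PERK siRNAs, both under tunicamycin, with 1.96 SE on each side; red points passed the adjusted threshold. EIF4EBP1 lies at -1.12 and EIF2S1 at 0.61, the ends of the range. The SE comes from libraries within groups and does not measure the spread between siRNAs.

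The chemical and the siRNA routes to PERK were also compared directly: 12 members were higher and 15 lower with the inhibitor than with the PERK siRNAs, at a background of 51.9% (25.8% higher and 26.1% lower). The most raised were EIF5 (0.49 ± 0.07), EIF4G2 (0.43 ± 0.04) and EIF1B (0.41 ± 0.06), and the most lowered EIF3B (-0.45 ± 0.04), EIF4E2 (-0.30 ± 0.04) and EIF5A (-0.28 ± 0.04). EIF2AK3 mRNA itself averaged 125 ± 4.25 CPM with the inhibitor, which acts on the protein. The PERK siRNAs differed from each other in 4 members, at a background of 4.73% (2.24% higher and 2.49% lower): EIF4G2 and EIF3L (0.20 ± 0.04) were higher with siPERK-1 and EIF2B5 (-0.18 ± 0.05) and EIF4G1 (-0.14 ± 0.04) lower. The lower pair was lost, with a count of 0, without TM siPERK-1 replicate 1, 2 or 3, without TM siPERK-3 replicate 1, 3 or 4, and with upper-quartile factors.

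Other genes of translation control, a list of 35, were counted beside the members. With tunicamycin 17 rose and 7 fell, with siATF4-2 9 rose and 11 fell, with siATF4-3 16 rose and 11 fell, with the inhibitor 9 rose and 8 fell, and with siPERK-1 and siPERK-3 3 and 4 rose and 7 and 7 fell. The share called was 68.6% with tunicamycin (69.0% of all genes tested), 57.1% with siATF4-2 (55.6%), 77.1% with siATF4-3 (61.9%), 48.6% with the inhibitor (35.7%), 28.6% with siPERK-1 (26.4%) and 31.4% with siPERK-3 (26.8%). Both regulatory subunits of the eIF2 alpha phosphatase rose with tunicamycin and fell with both ATF4 siRNAs: PPP1R15A (GADD34) by 1.99 ± 0.10, then -1.24 ± 0.10 and -1.75 ± 0.10, and PPP1R15B by 0.81 ± 0.05, then -0.51 ± 0.05 and -0.67 ± 0.05. The mTORC1 brakes SESN2 and DDIT4 did the same, SESN2 with 2.20 ± 0.14, -1.43 ± 0.14 and -2.75 ± 0.15 and DDIT4 with 0.78 ± 0.21, -2.25 ± 0.22 and -2.62 ± 0.23. With the inhibitor PPP1R15A (0.67 ± 0.08), PPP1R15B (0.22 ± 0.05) and SESN2 (0.34 ± 0.13) rose, and DDIT4 was not called (-0.13). PDCD4, which holds eIF4A away from eIF4G, rose with tunicamycin (0.58 ± 0.06) and the inhibitor (0.43 ± 0.06) and fell with siPERK-1 (-0.52 ± 0.06), siPERK-3 (-0.51 ± 0.06), siATF4-2 (-1.05 ± 0.06) and siATF4-3 (-1.25 ± 0.06). The helicase gene DDX3X and the ribosome recycling factor ABCE1 rose with both ATF4 siRNAs, DDX3X by 0.76 ± 0.05 and 0.79 ± 0.05 and ABCE1 by 0.70 ± 0.05 and 0.86 ± 0.05. CDC123, needed to assemble eIF2, fell with tunicamycin (-0.43 ± 0.04) and rose with every siRNA, from 0.14 to 0.32.

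Summed over all members, the initiation factor genes held 12091 ± 239 CPM in DMSO siCtrl, 13172 ± 247 in TM siCtrl, 13620 ± 405 with the inhibitor, 13064 ± 239 with siPERK-1, 12790 ± 326 with siPERK-3, 12806 ± 237 with siATF4-2 and 13023 ± 255 with siATF4-3 (SD, n = 4). The part of EIF4A1 and EIF3C is not counted in this sum in any group.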

How the data were processed

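Strand-specific total RNA libraries of LNCaP cells were sequenced. The authors deposited raw counts of reads per gene in 6 tables; the submitters' processing notes name build hg19 and the tools DESeq2 1.10.1, featureCounts 1.5.0-p1 and TopHat2 2.1.0. The sources used here give no tool settings and no annotation. Repeated TM siCtrl columns were identical and used once, and 1 row without a name held 0 counts and was left out.

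All 28 libraries entered 1 fit of group means in edgeR 4.0.16 (R 4.3.3): filterByExpr (min.count 10, min.total.count 15), TMM, robust quasi-likelihood F-test, two-sided, Benjamini-Hochberg adjustment over 14314 genes in each of 10 comparisons, called at an adjusted p under 0.05. Every adjusted p given comes from this fit unless another setting is named. SE is the absolute log2 change over the square root of F, and 95% intervals are 1.96 SE on each side. In contrasts that average siRNAs, SE and p come from libraries within groups and do not measure the spread between siRNAs. At totals of 10794637 to 17253801 counts, the tested members had from 4025 to 637483 counts over all libraries, and the script was tested on simulated data.

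Alternatives were upper-quartile factors, library totals, DESeq2 1.42.0, limma-voom 3.58.1, other filters, the compared groups alone, a replicate block and leaving out each library. Replicate numbers were not taken as pairs, since the labels do not say that a number marks a shared experiment. Same-numbered libraries had deviations correlated over 0.1 in 31 of 84 same-numbered pairs. In most of the 84 pairs the same number was the best match. The members and lists were chosen with earlier results of these data known. Named were the 11 genes of eIF2, eIF2B and the 4E-BPs in every group, the 5 largest called rises and falls in each comparison with a control, 3 and 3 in each direct comparison, and members called in none or not tested. The other members described were chosen after their values were seen. For 1 planned luminal marker, the result is not reported here, and the marker sum leaves it out.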

Additional observations from a re-analysis of the deposited data

Results flagged for a closer look

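In groups of 4 libraries, a value was set aside for a closer look where its gap to the nearest of the others, over the range of the group, passed Dixon's critical value at 95%. This occurred in 17 of 322 groups of member values (5.28%), and chance gives about 1 in 20. EIF5 was picked out in 3 groups, each time for a low replicate 4: 321 CPM in DMSO siCtrl (others 380 to 392), 369 with siPERK-3 (others 471 to 482) and 549 with siATF4-3 (others 616 to 629). Replicate 4 was also the low one for EIF3M with the inhibitor (238, others 262 to 266), EIF4A2 with siPERK-3 (279.9, others 343 to 346), EIF3D with siATF4-3 (325, others 354 to 360) and EIF2B1 with siATF4-2 (62.6, others 66.1 to 66.6). It was the high one for EIF4EBP3 with siATF4-2 (11.3, others 7.31 to 7.61), and for EIF1AD (28.7, others 25.8 to 26.2) and EIF1AX (166, others 153 to 155) with siPERK-1.

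Single libraries of other numbers were picked out for EIF4E3 in TM siCtrl replicate 2 (19.4 CPM, others 17.9 to 18.0), EIF2B4 in TM siPERK-1 replicate 1 (38.3, others 36.8 to 37.0) and EIF5B in TM siPERK-1 replicate 3 (173, others 181 to 183). The others were EIF3D in TM siPERK-3 replicate 1 (265, others 258.5 to 259.4), EIF4E2 in TM siATF4-2 replicate 2 (74.6, others 67.3 to 68.2), EIF1AD in TM siATF4-2 replicate 3 (23.2, others 24.1 to 24.2) and EIF3F in TM siATF4-3 replicate 1 (201, others 209 to 210.4).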

How the results depend on the processing

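Of the 20 counts of members higher or lower, all 20 stayed within 1.5 times the value given under DESeq2, limma-voom and the stricter filter. With library totals the inhibitor's counts became 8 higher and 14 lower, and with upper-quartile factors or the replicate block siPERK-1 had 12 higher in place of 7. Members lower with siPERK-1 than with siPERK-3, 2 in the text, were 0 with upper-quartile factors, 1 with library totals, 0 without a filter and 0 in a fit of the compared groups only. When each library was left out in turn, members lower ranged from 4 to 7 with the inhibitor, 3 to 8 with siPERK-3, 0 to 2 for siPERK-1 against siPERK-3 and 2 to 5 for siATF4-2 against siATF4-3. The count with tunicamycin ranged from 17 to 19 higher and 18 to 19 lower, and with siATF4-3 from 21 to 22 higher and 14 to 15 lower.

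Among the values named by rule for a given comparison, those that reversed were uncalled and near 0. Among the other members, the called tunicamycin rises of EIF3E and EIF3K were -0.005 and -0.030 with library totals, uncalled, and the uncalled changes of EIF3M and EIF4H became called falls (-0.12 and -0.08). With library totals the uncalled tunicamycin changes of EIF2S3 (-0.19), EIF4B (-0.19), EIF4G1 (-0.18), EIF4ENIF1 (-0.14) and EIF5A2 (-0.23) also became called falls. EIF4EBP3 with the inhibitor was 0.006 in DESeq2 and 0.015 in limma-voom, and ranged from -0.072 to 0.071 with a library left out. EIF2B1 with siPERK-1 was 0.009 with upper-quartile factors and ranged from -0.044 to 0.013 with a library left out. EIF2B2 with siPERK-1 was -0.005 with library totals and ranged from -0.003 to 0.039 with a library left out. With siPERK-3 it ranged from -0.087 to 0.033 with a library left out. With siATF4-2 it was -0.029 with upper-quartile factors and -0.002 in the compared groups only, and ranged from -0.029 to 0.042 with a library left out. The cause was not tested. Calls with tunicamycin were lost under some alternatives for EIF2D, EIF3A, EIF3D, EIF3E, EIF3K and EIF3L, and calls with siATF4-2 for EIF3A, EIF3I, EIF3K, EIF4E and EIF4E2 and with siATF4-3 for EIF3G and EIF4A3. The replicate block changed no other count by over 1.5 times. With it EIF2S1 (0.12) and EIF4G2 (0.10) with the inhibitor, EIF2B3 (0.16) and EIF5 (-0.10) with siPERK-1 and EIF1B with siATF4-2 (0.15), uncalled in the text, were called, as were some other small changes; replicate numbers deviated together weakly (r from -0.005 to 0.302, 73 of 84 best with the same number), a hint from the data and not from the design. A fit with EIF3C and EIF3CL added together was not run, since their sum held too few counts. EIF4A1, EIF3C and EIF3CL cannot be read from these tables at any depth given here.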
